A study of Mus musculus with 9 samples.

Results

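Long-term hematopoietic stem cells (LT-HSCs) lacking 3 class IA PI3K catalytic genes were compared with all control libraries of the study taken as a single group, gene by gene and library by library. A gene was retained for description when its mean level reached 5 CPM (a gene's count relative to the TMM-scaled size of its library) in TKO or in the controls, and when its 3 TKO values all lay above, or all lay below, the 6 control values. Of 11410 genes reaching the CPM minimum in a table of 47643 genes, 539 met this condition (4.72%), of which 278 were higher in TKO (2.44%) and 261 were lower (2.29%). These same values chose the genes, so the levels and folds below describe them and are no test of a difference.

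The study transplanted whole bone marrow from C57BL/6 donors of each genotype into lethally irradiated B6.SJL mice without competitor cells, and every group received 2 injections of 250 μg pIpC, a synthetic double-stranded RNA that induces interferon. TKO donors carried floxed Pik3ca and floxed Pik3cb on both alleles together with Pik3cd-/- and Mx1-Cre. The δKO donors, littermates of TKO, had these same Pik3ca, Pik3cb and Pik3cd alleles but no Cre, and the WT donors had Mx1-Cre with wild-type PI3K genes. Bulk RNA-seq was made from 3 TKO, 3 WT and 3 δKO libraries of donor Lin-cKit+Sca1+Flk2-CD48-CD150+ cells taken 4 weeks after pIpC. Thus TKO shared Cre and pIpC with WT, and shared germline loss of Pik3cd with δKO, while the Mx1 promoter that drives Cre is itself interferon-inducible. Marrow from 7 recipients per group was pooled before staining, and no source ties a library to an animal or says how the 3 libraries of a group were divided, so the p-values below measure only the spread between libraries.

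Class IA PI3Ks are lipid kinases that act downstream of growth factor and cytokine receptors. They generate PIP3 at the plasma membrane, which recruits AKT, and AKT in turn activates mTORC1 and holds FoxO transcription factors out of the nucleus. In HSCs this pathway is known for its part in the balance between quiescence and cell cycle entry, in metabolism and in autophagy.

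The libraries held 31300343 to 60386097 counts. Pairs of libraries of one genotype differed by more than counting noise, with a chi-square of 128 to 533 per gene, so none was another library sequenced again. Separate libraries of the same RNA can also exceed counting noise, so these values do not show that the cells differed. Genes with at least 1 count numbered 18180 in δKO replicate 1 and 18500 in the unnumbered δKO library (the δKO column whose number no label carries), against 19703 to 22703 in the other libraries, and these 2 libraries stood apart from the rest. Xist was at 3227 to 6393 CPM in 5 libraries and at 32.1 to 59.5 CPM in the other 4, with both kinds in every genotype, so the 3 libraries of a genotype did not come from a single mixture of cells. Among X-linked genes 18 of 349 (5.16%) were outside the control range, near the 4.72% of all genes. The LT-HSC markers summed to 1625 to 2002 CPM in TKO and 1159 to 2556 CPM in controls, and Cd3e, Cd3g and Cd8a, which define T cells, had no count in any library. All 7 T and NK cell markers together summed to 26.2 to 70.2 CPM in TKO and 55.2 to 236 CPM in controls. The 10 neutrophil markers summed to 169.5 to 3413 CPM in TKO and 277 to 12868 CPM in controls, so RNA of other cell types was not absent.

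In the fit across 18205 genes (edgeR quasi-likelihood test, Benjamini-Hochberg adjustment), 0 genes passed an adjusted p of 0.05 with more than a 2-fold change (0%). The smallest adjusted p was 0.228, the value of Enah, Ncam2 and Ifitm1. At an unadjusted p under 0.05 there were 1191 genes (6.54%), 471 of them higher and 720 lower in TKO. DESeq2 passed 91 higher genes (0.465%) and 129 lower genes (0.659%) of 19581 with an adjusted p. Without δKO replicate 1, edgeR passed 8 higher and 6 lower genes, among them Enah (adjusted p = 0.0144), Ncam2, Stxbp6, Serpina3g, Podxl and Rps6ka2 of the retained genes, and 561 higher and 568 lower genes did not overlap. The split between directions rested on the scaling and the CPM minimum. With the minimum of 5 CPM set on the mean over all 9 libraries rather than on either group, 236 genes were higher and 255 lower, and with a minimum of 10 CPM 229 and 248. Scaled to total counts, 481 genes were higher and 89 lower (84.4% higher, against 51.6% with TMM factors), and over all genes at the CPM minimum the median log2 fold change moved from -0.07 to 0.11.

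Most non-overlapping genes were separated from the controls by a narrow margin. The median log2 fold change was 1.06 for the higher genes (interquartile range 0.74 to 1.47) and -0.84 for the lower genes (-1.18 to -0.62). More than a 2-fold change was seen in 149 higher and 95 lower genes, and more than 4-fold in 33 and 21. Between the nearest TKO and control values the median ratio was 1.15 for higher genes and 1.09 for lower genes. It exceeded 1.5 in 36 higher and 17 lower genes, and was under 1.1 in 108 (38.9%) and 139 (53.3%). At the edge, Tut4 and Wdr62 were inside by ratios of 1.00013 and 1.0005, and 1700015C17Rik and Gda were just outside at 0.999 and 0.99975. Gm38157, with a mean of 5.002 CPM, was the retained gene closest to the CPM minimum, and Gm23413 at 4.99 CPM fell short of it. Protein-coding genes accounted for 247 higher genes and 249 lower ones (92.0% of both together), near the 90.2% among all genes at the CPM minimum.

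Set against each control genotype separately, the median log2 fold change of the higher genes was 0.96 against WT and 1.17 against δKO, and that of the lower genes was -0.69 and -0.92. Both comparisons use the same TKO libraries, and the rule fixes their direction. The change was larger against δKO than against WT in 189 higher and 200 lower genes. Over all genes at the CPM minimum the median was 0.03 against WT and -0.13 against δKO. WT and δKO values were themselves non-overlapping in 12.4% of the retained genes, beside 9.76% of all genes at the CPM minimum.

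**Figure D1:**
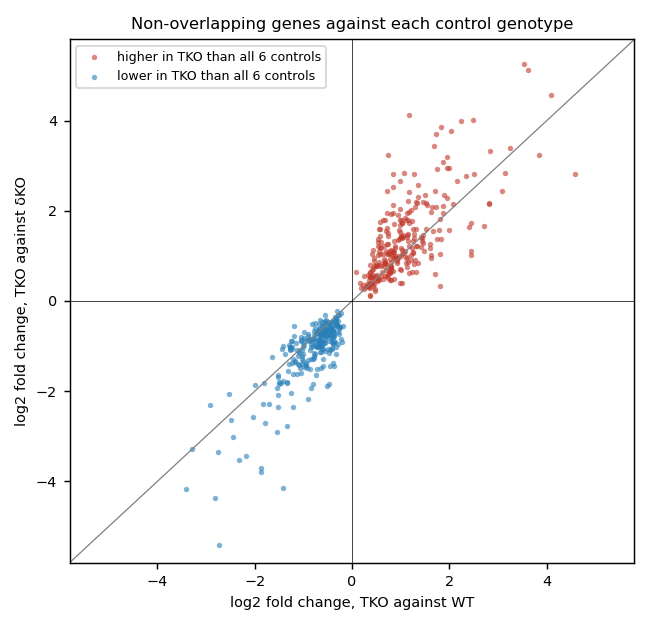
Each point is a gene outside the control range, with its log2 fold change of TKO against WT on the x axis and against δKO on the y axis; the diagonal marks equal changes. Red points are the 278 higher genes and blue points the 261 lower genes (3 higher genes without an edgeR fit are not drawn), and most lie farther from 0 on the δKO axis.

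The targeted genes and sort markers were not among the non-overlapping genes. Pik3cb, the P110β gene, was at 33.5, 25.5 and 33.9 CPM in TKO and at 33.2 to 101 CPM in controls, with δKO replicate 2 alone inside the TKO range. Pik3ca was at 52.8 to 68.0 CPM in TKO and 41.3 to 88.2 CPM in controls. Pik3cd, deleted in the germline of TKO and δKO, was at 71.2, 73.1 and 73.5 CPM in TKO, at 138.6, 98.2 and 112 CPM in WT and at 38.5, 91.2 and 71.1 CPM in δKO. All TKO and δKO libraries thus lay below the WT libraries, but none was near 0. Reads were counted over whole genes, so a deleted segment could still leave counts from the rest of the gene. Kit, Ly6a, Flt3, Cd48 and Slamf1, which correspond to the sort gate, all overlapped between the groups. Kit was at 522 to 689 CPM in TKO and 429 to 949 CPM in controls, and Slamf1, the CD150 gene, at 51.0 to 159 CPM and 16.4 to 137 CPM. Ly6a, the Sca1 gene, was at 24.5 to 37.3 CPM and 2.15 to 28.3 CPM. Flt3 and Cd48, the genes of the excluded markers Flk2 and CD48, were at 12.4 to 39.3 CPM and 9.66 to 13.96 CPM in TKO, against 7.06 to 115 CPM and 5.82 to 23.2 CPM. Of the 13 class I PI3K subunits and related genes that reached the CPM minimum, 0 were outside the control range, beside 4.72% of all genes, so that a count of 0 among so few genes says little about them.

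Functions were described with 50 gene lists, by how many of each list's genes lay outside the control range and by the list's median log2 fold change, beside -0.07 for all genes at the CPM minimum. The mitosis list had the largest number of lower genes, 21 of 100 (21%, against 2.29% of all genes), with 0 higher. The guanylate-binding protein (GBP) and IRG GTPase list had the largest share of higher genes, 4 of 13 (30.8%, against 2.44%). Lysosome genes and histone genes each had 11.1% lower, and HSC genes had 7.35% higher. Where a gap of 1.5-fold was required, 1 mitosis gene (Plk1, 1% of the list), 1 histone gene (2.22%) and 0 lysosome genes remained lower, beside 0.149% of all genes, and 0 GBP or IRG genes remained higher, beside 0.316%. Levels of whole lists (mean log2(CPM + 1), centred per gene) did not overlap between TKO and controls in 6 of the 50 lists: mitosis, DNA replication and G1/S, Rab GTPases, GBP and IRG GTPases, cytokine receptors and zinc finger genes. Some margins were narrow. The lowest TKO and highest control levels were 0.045 and 0.028 for cytokine receptors, and 0.083 and 0.057 for zinc finger genes. The level over all genes at the CPM minimum itself ran from -0.027 to 0.052 across libraries. Of the cytokine receptor genes, 0 were higher and 1 was lower than the control range. No retained gene belonged to the lists of cytosolic ribosomal proteins (80 genes), mitochondrial ribosomal proteins (75), cholesterol and fatty acid synthesis (36), NF-kB (33), p53 targets (29), nuclear pore (28) or vacuolar proton pump subunits (18). Beside 4.72% of all genes, a count of 0 says little for the shorter of these lists. In the proton pump list 15 of 18 genes had a log2 fold change below 0, and its median was -0.34. Of the higher genes 39 (14.0%) and of the lower genes 82 (31.4%) were in any list, beside 2451 of the 11410 genes at the CPM minimum (21.5%).

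**Figure D2:**
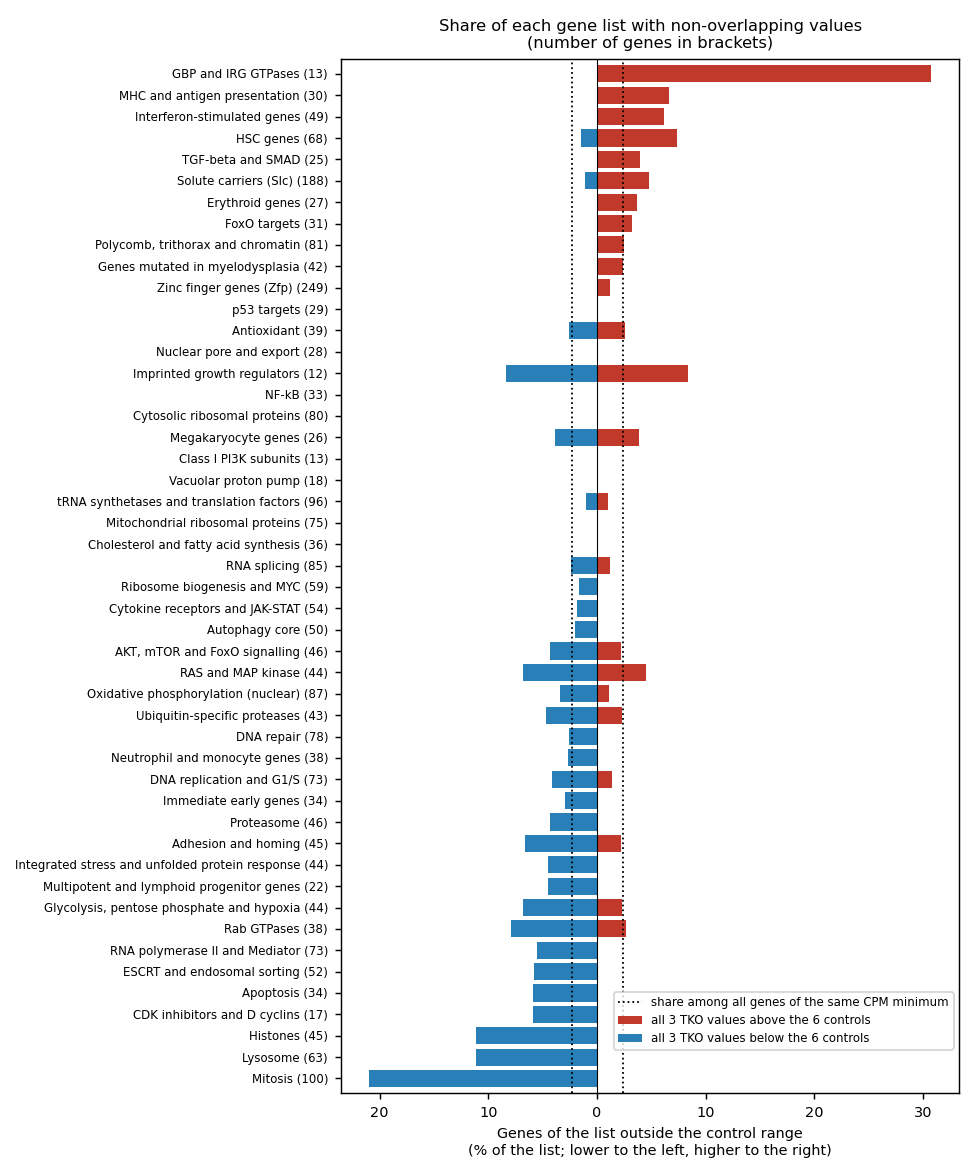
Bars give the percent of each list's genes whose TKO values all lie below (blue, left) or all above (red, right) the 6 controls, for lists with at least 10 genes at the CPM minimum (number in brackets). Dotted lines mark the shares among all such genes, 2.29% and 2.44%; mitosis extends to 21% on the left and the GBP and IRG GTPases to 30.8% on the right.

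The lower mitosis genes act at stages from chromosome condensation to cytokinesis. They included the mitotic kinases Plk1, Nek2 and Ttk, the cyclins Ccnb1 and Ccnb2 that activate CDK1, the condensin subunits Smc4 and Ncaph2, the centromere and kinetochore genes Cenpa, Cenpe, Cenpn and Bub3, and the spindle motors Kif4, Kif11, Kif20b and Kif23. Of the 100 genes, 93 had a log2 fold change below 0, 42 had an unadjusted edgeR p under 0.05 and 12 had a DESeq2 adjusted p under 0.05 on the lower side, and the list's median was -0.63. Among all 11410 genes at the CPM minimum, 6458 were below 0, and 538 and 96 passed these thresholds on the lower side.

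Several of these genes share promoter sequences. The cell cycle genes homology region is a short element through which the DREAM and MuvB complexes repress G2/M genes outside those phases, and its core can be written TTTGAA. Searched on both strands in RefSeq promoters (250 bases before to 50 after the start, build GRCm38.p6), TTTGAA was present in 13 of the 18 lower mitosis genes with an entry (72.2%). It was present in 59.1% of the other 66 mitosis genes with an entry, in 14.2% of the 8449 entries for genes at the CPM minimum and in 20.2% of all 27025 promoters. The CCAAT box, letters CCAAT, was in 83.3% of the lower mitosis genes, 63.6% of the other mitosis genes, 43% of genes at the CPM minimum and 41.1% of all promoters. Thus both motifs were common to mitosis genes inside and outside the control range, and these counts are descriptions, not sites of binding. The 7 windows here show the element, in capitals, within 70 bases before and 50 bases after the start of genes for a kinase of mitotic entry, a nuclear importin, the centromeric histone, kinesins, a cyclin and a checkpoint kinase. They lie at chr7:122159365-122159484 (Plk1, plus strand), chr11:106999476-106999595 (Kpna2, minus), chr5:30666816-30666935 (Cenpa, plus), chrX:100625995-100626114 (Kif4, plus), chr9:61946750-61946869 (Kif23, minus), chr9:70421505-70421624 (Ccnb2, minus) and chr9:83834619-83834738 (Ttk, plus), and in Kpna2 and Ttk the match reads TTCAAA, from the other strand.
Plk1: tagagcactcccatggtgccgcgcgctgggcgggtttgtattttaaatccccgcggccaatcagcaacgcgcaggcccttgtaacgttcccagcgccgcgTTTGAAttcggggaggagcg
Kpna2: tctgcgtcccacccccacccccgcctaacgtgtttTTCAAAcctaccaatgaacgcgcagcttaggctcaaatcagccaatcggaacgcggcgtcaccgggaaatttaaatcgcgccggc
Cenpa: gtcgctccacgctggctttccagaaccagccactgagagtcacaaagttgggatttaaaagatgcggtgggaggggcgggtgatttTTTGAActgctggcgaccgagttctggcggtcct
Kif4: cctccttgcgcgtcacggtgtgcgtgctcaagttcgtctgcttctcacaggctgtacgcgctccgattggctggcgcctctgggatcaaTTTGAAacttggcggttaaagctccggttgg
Kif23: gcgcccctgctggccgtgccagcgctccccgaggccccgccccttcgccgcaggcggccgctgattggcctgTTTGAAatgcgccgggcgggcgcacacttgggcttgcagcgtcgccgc
Ccnb2: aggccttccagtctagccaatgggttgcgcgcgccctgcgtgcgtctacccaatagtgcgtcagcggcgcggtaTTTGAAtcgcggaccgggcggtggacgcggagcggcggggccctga
Ttk: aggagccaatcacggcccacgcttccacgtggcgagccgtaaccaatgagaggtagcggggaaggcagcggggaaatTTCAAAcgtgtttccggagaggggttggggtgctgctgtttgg

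Plk1, the kinase that drives mitotic entry and spindle assembly, had the widest separation of the mitosis genes. Its TKO values were 36.7, 32.1 and 34.9 CPM, and the controls ran from 68.5 to 163 CPM with a median of 102. The 3 TKO libraries lay close together and well under the lowest control, WT replicate 3, and the log2 fold change was -1.60 ± 0.30 (SE). Kpna2, a nuclear import adaptor, was at 64.5, 83.2 and 43.1 CPM in TKO against 91.3 to 197 CPM (median 156), a log2 fold change of -1.30 ± 0.29. Smc4, a core condensin subunit, was at 168, 218 and 205 CPM against 288 to 424 CPM (median 355; -0.87 ± 0.20). Cenpe, the kinetochore motor that aligns chromosomes, was at 75.5, 78.6 and 94.7 CPM against 124 to 238 CPM (median 175; -1.09 ± 0.25). For each of them the lowest control was WT replicate 3. Mki67, which encodes the Ki-67 proliferation antigen, was the most abundant of the group, with 941, 876 and 888 CPM in TKO against 1263 to 1825 CPM in controls (-0.70 ± 0.18). By flow cytometry for Ki-67 protein and DNA content, the paper found the cell cycle phases of WT, δKO and TKO LT-HSCs alike. Those cells were taken at a later time after pIpC than the RNA here. The remaining lower mitosis genes had log2 fold changes between -1.40 (Nek2) and -0.50 (Kif20b). Knl1, a kinetochore scaffold that was in no list and was chosen after its values were seen, was also lower, at 51.9, 68.0 and 57.0 CPM against 86.0 to 136 CPM (-0.91 ± 0.22).

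**Figure D3:**
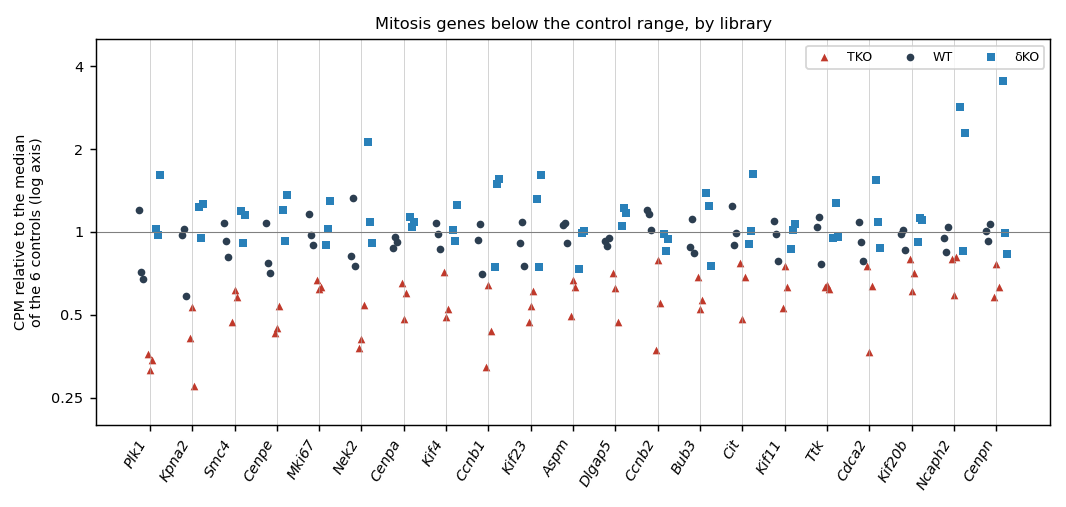
CPM of the 21 lower mitosis genes in each library divided by the median of the 6 controls (log axis), ordered by unadjusted p from left to right. Red triangles are TKO, dark circles WT and blue squares δKO; for each gene the 3 triangles lie below all other points, with the widest separation at Plk1.

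How many mitosis genes were outside the control range moved with single libraries and with the scaling, as the number for all genes did. Without δKO replicate 1, which had the fewest detected genes, 42 of the 100 were lower, beside 5% of all genes. Without TKO replicate 2 there were 40, beside 7.04%, and with total-count scaling 9, beside 0.777%. The list's median stayed between -0.69 and -0.57 when any one library was left out, and was -0.47 with total-count scaling. As a whole, the mitosis list (mean log2(CPM + 1) centred per gene) lay at -0.449 to -0.203 in TKO and -0.122 to 0.384 in controls, without overlap. TKO replicate 2 was the highest TKO library and δKO replicate 1 the lowest control. The same was so for the neutrophil and monocyte list, at 0.384 in TKO replicate 2 and -2.04 in δKO replicate 1. The part of such cells in the mitosis values was not tested.

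Among DNA replication and G1/S genes, 3 of 73 were lower (4.11%, beside 2.29% of all genes) and 1 was higher (1.37%, beside 2.44%). The list's level was -0.179 to -0.047 in TKO and -0.011 to 0.0999 in controls, without overlap. Cdc45, part of the replicative helicase, was at 14.6, 16.4 and 26.5 CPM in TKO against 34.1 to 70.3 CPM in controls (median 36.2), a log2 fold change of -1.17 ± 0.35. Rrm1, the large subunit of ribonucleotide reductase, was at 166, 177 and 181 CPM against 213 to 276 CPM, and Mcm5, another helicase subunit, reached 118 CPM in TKO with a lowest control of 123 CPM. Rfc2, a clamp loader subunit, was the higher one, with 72.6 to 100 CPM in TKO and 50.4 to 71.8 CPM in controls, which touch within a ratio of 1.01. Cdk6, the G1 kinase that brings HSCs out of quiescence, was the only one of 17 genes for CDK inhibitors, D cyclins and their kinases outside the range (5.88%). It was highly abundant, at 1684, 1658 and 2257 CPM in TKO and 2425 to 3682 CPM in controls (median 2820, log2 fold change -0.65 ± 0.20). Under only 1 of 3 other scalings (DESeq2 factors, upper-quartile factors and total counts) did it stay outside the range.

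Histone genes had 5 of 45 lower and a median of -0.56. Most of the list are canonical histones, transcribed mainly in S phase, and the rest are replacement variants made throughout the cycle. Hist1h4f was at 19.2, 9.88 and 20.5 CPM in TKO against 22.2 to 101 CPM in controls (-1.75 ± 0.46), and Hist1h2bj at 4.09, 3.20 and 4.47 CPM against 7.07 to 23.6 CPM (-1.60 ± 0.56). One of the 5 was such a variant, H3f3b, which encodes H3.3, at 289 to 314 CPM against 327 to 596 CPM (-0.56 ± 0.22). Canonical histone genes are near-identical copies whose reads may be shared, so single members are uncertain. Without TKO replicate 2, 18 of 44 were lower (40.9%, beside 7.04% of all genes), and with total-count scaling 1 was (2.22%, beside 0.777%). The list's levels overlapped, since TKO replicate 2 was at 0.0999 and the controls at -0.045 to 0.405. Among the TKO libraries the neutrophil and monocyte list was also highest in replicate 2, at 0.384 against -2.26 and -1.04, and a link was not tested.

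Lysosome genes were lower in 7 of 63 cases, with 0 higher and a median of -0.31. The median was -0.49 without TKO replicate 2, -0.21 without TKO replicate 1 and -0.10 with total-count scaling. Ctsb, the protease cathepsin B, was at 74.0, 104 and 90.0 CPM in TKO against 130 to 204 CPM in controls (median 156), a log2 fold change of -0.82 ± 0.22. Sort1 and Igf2r, the sorting receptors that carry hydrolases to the lysosome, were at 91.4 to 117 CPM and 6.27 to 16.3 CPM in TKO. Their controls were at 146 to 366 CPM and 20.8 to 71.1 CPM. Nagpa, the enzyme that uncovers the mannose 6-phosphate tag those receptors bind, was at 11.5, 13.3 and 8.63 CPM against 19.7 to 38.9 CPM (-1.13 ± 0.38), and Gusb, a glycan hydrolase, at 62.0 to 79.3 CPM against 86.5 to 132 CPM. Sumf1, which activates sulfatases, and Ctsl completed the group. The genes thus included both enzymes and the machinery that delivers or matures them. Lyst, a regulator of lysosome size chosen after its values were seen, was at 79.6, 96.1 and 114 CPM against 139 to 295 CPM (-1.10 ± 0.26). Without TKO replicate 2, 18 of the 63 genes were lower (28.6%, beside 7.04% of all genes) and 1 was higher. The lower count was 12 without δKO replicate 1 (19%, beside 5%) and 4 with total-count scaling (6.35%, beside 0.777%). The list's level was -0.271, 0.104 and -0.235 in TKO and -0.043 to 0.271 in controls, so that TKO replicate 2 lay among the controls. That library also had the highest level of the TKO libraries for the neutrophil and monocyte list, at 0.384 against -2.26 and -1.04, with controls at -2.04 to 1.62. Depletion of lineage-positive cells and the Lin-cKit+Sca1+ gate were meant to remove such cells, and their part in the lysosome values was not tested.

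The E-box CACGTG, the form bound by TFEB and by MYC family factors, was found in the promoters of 4 of the 5 lower lysosome genes with an entry. It was found in 31.8% of the other 44 lysosome genes with an entry, in 14.1% of all lower genes with an entry, in 12.2% of genes at the CPM minimum and in 8.09% of all promoters. The letters read the same on both strands. The 3 windows here, shown in the same way with the E-box in capitals, are those in which it lies close to the start. They are chr17:12769657-12769776 (Igf2r, minus), chr16:5203963-5204082 (Nagpa, minus) and chr6:108185534-108185653 (Sumf1, minus), and Igf2r and Nagpa hold 2 copies each.
Igf2r: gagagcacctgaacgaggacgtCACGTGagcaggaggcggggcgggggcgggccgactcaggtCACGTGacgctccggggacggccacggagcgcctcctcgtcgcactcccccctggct
Nagpa: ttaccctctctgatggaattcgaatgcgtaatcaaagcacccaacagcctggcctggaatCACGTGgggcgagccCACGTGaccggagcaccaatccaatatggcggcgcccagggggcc
Sumf1: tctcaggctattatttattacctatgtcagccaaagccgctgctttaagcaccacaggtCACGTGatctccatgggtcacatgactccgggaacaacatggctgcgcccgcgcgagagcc

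Core autophagy had 1 of 50 genes lower (2%), endosomal sorting 3 of 52 (5.77%) and the Rab GTPases 3 of 38 (7.89%), beside 2.29% of all genes. Rab7 and Rab11a belong to both of the last lists, so these counts are not separate. On the higher side the Rab list had 1 gene (2.63%, beside 2.44%), Rab4a of early endosomes, at 28.6 to 46.5 CPM in TKO against 6.01 to 26.0 CPM in controls (1.26 ± 0.47). The level of the Rab list was -0.175 to -0.085 in TKO and -0.016 to 0.234 in controls, without overlap. Atg12, the ubiquitin-like protein conjugated to ATG5 during autophagosome formation, was the core autophagy gene outside the range. It was at 11.2, 8.25 and 12.2 CPM in TKO against 18.5 to 26.9 CPM in controls (median 23.1; -1.13 ± 0.35), and its nearest values were separated by a ratio of 1.52. The median of the autophagy list was 0.01. Rab7 and Rab11a, GTPases of late and recycling endosomes, and Mvb12a, an ESCRT-I subunit, were the 3 of endosomal sorting. Rab11a was at 24.2 to 32.3 CPM in TKO against 35.9 to 74.0 CPM, Rab7 at 136 to 174 CPM against 180 to 265 CPM, and Mvb12a at 4.03 to 4.79 CPM against 7.18 to 20.5 CPM.

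Of 46 genes of AKT, mTOR and FoxO signalling, 1 was higher (2.17%, beside 2.44% of all genes) and 2 were lower (4.35%, beside 2.29%). Deptor, a subunit that binds and restrains mTOR, was higher in TKO, at 94.4, 121 and 103 CPM against 40.7 to 71.8 CPM in controls (median 52.3; 0.92 ± 0.24). Lamtor4 and Depdc5, which belong to the Ragulator and GATOR1 complexes of amino acid sensing at the lysosome, were lower, and Depdc5 differed little outside one library: 52.5 to 56.3 CPM in TKO, 62.1 to 73.3 CPM in 5 controls and 241 CPM in δKO replicate 1. Cat, the catalase gene, was the only one of 31 FoxO targets outside the range (3.23% higher, beside 2.44%). It was at 108.6 to 116.6 CPM in TKO and 80.6 to 108.5 CPM in controls, inside by a ratio of only 1.001.

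The RAS and MAP kinase list had 3 lower (6.82%, beside 2.29% of all genes) and 2 higher genes (4.55%, beside 2.44%) of 44. Rps6ka2, a ribosomal S6 kinase downstream of ERK, had one of the largest changes of all, at 2.45, 5.14 and 3.35 CPM in TKO against 8.34 to 68.9 CPM in controls (median 25.7; -3.29 ± 0.69). The controls themselves spread widely, with δKO replicate 1 nearest to TKO. Spry2, an ERK-induced feedback inhibitor of receptor tyrosine kinase signalling, was at 7.08 to 8.94 CPM against 10.96 to 23.1 CPM, and Rasgrp2, an exchange factor for Rap1, at 53.4 to 79.9 CPM against 90.1 to 177 CPM. Nf1 and Rasa4, both RAS GTPase-activating proteins, were higher, although Nf1 by 0.28 only on the log2 scale and Rasa4 by 0.97 at 9.07 to 13.3 CPM in TKO.

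Of 45 adhesion and homing genes, 3 were lower (6.67%, beside 2.29% of all genes) and 1 was higher (2.22%), and other receptors named here were among the lower genes with the largest folds. Cd44, the hyaluronan receptor, was at 78.9, 130 and 119 CPM in TKO and at 177 to 257 CPM in controls (median 212; -0.97 ± 0.22). Cxcr4, the receptor for the niche chemokine CXCL12, was at 30.6, 41.8 and 29.8 CPM against 42.7 to 194 CPM, and touched the controls within a ratio of 1.02 at δKO replicate 1. Itga1, a collagen-binding integrin chain, was nearly absent in TKO, at 0.0574, 0.639 and 0.403 CPM, and low in controls, at 1.00 to 10.3 CPM. Neo1, a netrin and RGM receptor marking a subset of HSCs, was at 1.64, 0.581 and 2.03 CPM against 3.63 to 29.1 CPM (-3.08 ± 0.85). It was the only HSC list gene below the control range, while 18 of the 68 genes of that list had a log2 fold change below 0. P2ry2, a nucleotide receptor, was at 1.47 to 4.01 CPM against 6.16 to 66.0 CPM (-3.05 ± 0.82), and Cnr2, the leukocyte cannabinoid receptor, at 0.756 to 4.28 CPM against 7.60 to 15.3 CPM (-2.31 ± 0.70). Evi2a (-3.06 ± 1.19) was lifted by 1 library, since the unnumbered δKO library was at 65.8 CPM and the other 5 controls at 2.503 to 13.5 CPM, against 1.48 to 2.18 CPM in TKO.

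Other lower genes are known from myeloid or lymphoid cells. Csf3r, the G-CSF receptor, was at 50.9, 142 and 110 CPM in TKO and 155 to 266 CPM in controls (median 201; -1.06 ± 0.31). Olr1, a scavenger receptor, was at 1.22, 27.3 and 6.74 CPM against 27.9 to 158 CPM, and Mcemp1, a surface protein of granulocytes and mast cells, at 0.306 to 5.55 CPM against 8.54 to 41.0 CPM. In both, TKO replicate 2 was the TKO library nearest to the controls. Hlx, a homeobox factor of hematopoietic progenitors, was at 1.01 to 2.75 CPM against 3.45 to 23.6 CPM, and Cd244a, a SLAM family receptor, at 0.822 to 2.56 CPM against 2.80 to 14.6 CPM. Cd180, a toll-like receptor homologue chosen after its values were seen, was at 17.5, 29.2 and 24.2 CPM against 36.9 to 96.8 CPM (-1.58 ± 0.35). Beside these genes, the 10 neutrophil markers summed to 169.5, 3413 and 961 CPM in TKO, to 12868, 5555 and 11224 CPM in WT and to 277, 5030 and 12803 CPM in δKO. The groups overlapped through δKO replicate 1, and 0 of the 10 markers was outside the control range, while the median log2 fold change of the 38 neutrophil and monocyte genes was -2.06 and ranged from -3.22 (without TKO replicate 2) to -1.46 (without TKO replicate 1) when a library was left out. The part of such cells in these results was not tested, and in bulk RNA fewer cells of a type and less RNA per cell cannot be told apart. Without δKO replicate 1, 10 of the 38 genes were lower (26.3%, beside 5% of all genes), against 1 (Csf3r) with all libraries (2.63%, near the 2.29% of all genes).

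Among 44 genes of glucose use, 3 were lower (6.82%, beside 2.29% of all genes) and 1 was higher (2.27%, beside 2.44%). The lower ones were G6pdx, which opens the pentose phosphate pathway, at 45.7, 76.3 and 44.4 CPM against 88.5 to 159 CPM (-1.06 ± 0.28), and the glycolytic enzymes Aldoa (-0.65 ± 0.23) and Pgk1 (-0.61 ± 0.23). The higher one was the glucose transporter Slc2a1, at 79.0, 88.3 and 67.7 CPM against 32.7 to 55.3 CPM (0.70 ± 0.23). Hspa5, the main chaperone of the endoplasmic reticulum, was at 415, 722 and 575 CPM against 809.6 to 1362 CPM (-0.88 ± 0.24), and its co-chaperone Dnajb9 was at 19.3 to 21.4 CPM against 22.4 to 66.7 CPM. Plod3, a collagen lysyl hydroxylase, was at 19.01 to 28.6 CPM against 42.0 to 242 CPM (-2.07 ± 0.56), and Daglb, a diacylglycerol lipase, at 5.90 to 11.4 CPM against 17.4 to 51.4 CPM. Gtf2h5, the smallest subunit of TFIIH, was tightly grouped at 10.001, 12.5 and 12.2 CPM against 22.5 to 35.7 CPM (-1.26 ± 0.33). Odc1, a MYC target in polyamine synthesis, was at 266 to 306 CPM against 347 to 579 CPM. The mitochondrial transcript mt-Nd2 was at 129 to 196 CPM against 199 to 358 CPM, inside by a ratio of 1.01. Of 34 apoptosis genes 2 were lower (5.88%, beside 2.29%), the effector Bak1 (86.9 to 105 CPM against 107 to 168 CPM) and the survival factor Mcl1 (288 to 327 CPM against 334 to 547 CPM).

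On the higher side, the clearest separations belonged to genes with no common list. Enah, an actin polymerase of lamellipodia and adhesions, was at 67.8, 78.0 and 57.1 CPM in TKO and 4.94 to 18.8 CPM in controls (median 9.41), a log2 fold change of 2.72 ± 0.39. Ncam2, a neural cell adhesion molecule, was at 27.5, 44.3 and 20.8 CPM against 1.07 to 4.79 CPM (median 2.69; 3.50 ± 0.55). Stxbp6, a regulator of SNARE assembly, was at 22.6, 28.9 and 22.3 CPM against 0.399 to 3.99 CPM (median 2.41; 3.32 ± 0.59). In these genes every TKO library was at least 3 times the highest control. The cytosolic branched-chain aminotransferase Bcat1, known for its role in leukemic stem cells, was at 15.2, 10.4 and 9.49 CPM against 0.284 to 2.75 CPM (3.44 ± 0.79), and Kctd17, a substrate adaptor of a cullin ubiquitin ligase, at 22.9, 17.6 and 16.9 CPM against 2.07 to 5.91 CPM (2.35 ± 0.51). Ldhd, the D-lactate dehydrogenase, was at 15.1 to 25.6 CPM against 0.798 to 7.47 CPM (2.30 ± 0.67). Podxl, a sialomucin of hematopoietic and endothelial progenitors that was chosen after its values were seen, reached 148, 128 and 104 CPM against 12.9 to 67.5 CPM (2.04 ± 0.45). Its highest control was δKO replicate 1.

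Some large folds rested on a single TKO library. In 9 higher genes TKO replicate 2 was more than 3 times both other TKO libraries. Mb21d2 was at 3.52, 28.1 and 3.62 CPM, with controls at 0.0798 to 1.11 CPM. Vegfc, a lymphangiogenic growth factor, was at 5.07, 50.2 and 8.52 CPM against 1.60 to 4.92 CPM, and its log2 fold change of 2.65 became 1.00 without TKO replicate 2. Il4, a type 2 cytokine, was at 0.555, 12.7 and 1.84 CPM against 0.0399 to 0.537 CPM, so that TKO replicate 1 lay barely above the controls. Akr1c19, Mylpf, Foxa3 and Gstm2 were also highest in that library, with 11.3, 14.3, 10.3 and 22.7 CPM in TKO replicate 2 and 1.34 to 6.00 CPM in the other TKO libraries, and Akr1c19 and Gstm2 belong to families of near-identical copies whose reads may be shared. Slc17a8, a vesicular glutamate transporter, was highest in TKO replicate 3 instead, at 20.2 CPM against 9.73 and 6.57 CPM in the others. Tbr1, Abcc3 and Ryr1, a neuronal transcription factor, a drug efflux pump and a calcium release channel, were more even, at 9.01 to 18.1, 6.34 to 10.9 and 6.17 to 14.1 CPM, with controls that reached 4.35, 4.15 and 4.89 CPM.

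**Figure D4:**
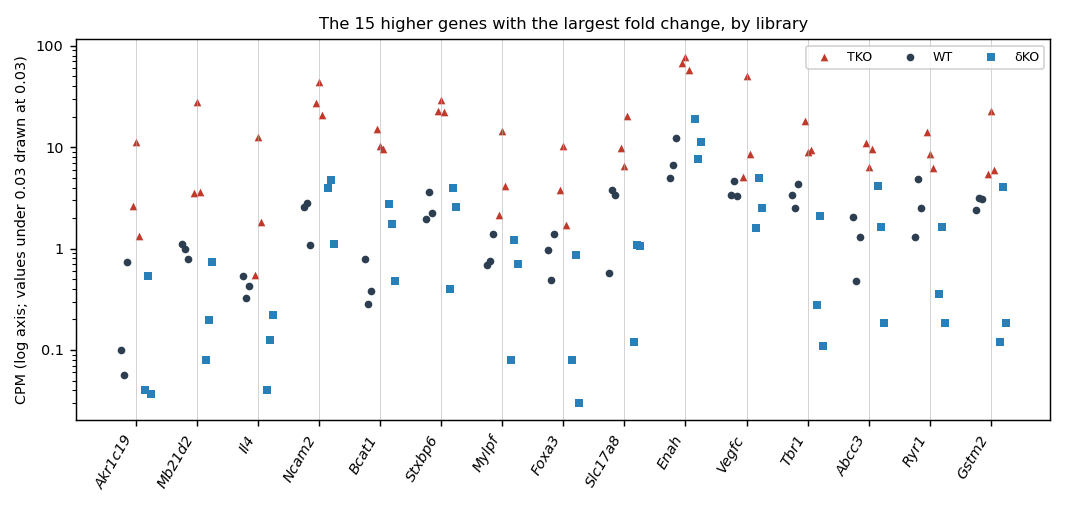
CPM in each library (log axis, values under 0.03 drawn at 0.03) for the 15 named higher genes with the largest log2 fold change, in that order. Red triangles are TKO, dark circles WT and blue squares δKO; TKO replicate 2 is the middle triangle and stands far above the others for Mb21d2, Il4 and Vegfc, while the 3 triangles are close for Stxbp6 and Enah.

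Interferon-inducible GTPases had the largest share of higher genes of all lists with at least 10 genes at the CPM minimum. The GTPases Iigp1, Gbp2, Gbp3 and Gbp7, effectors that attack vacuoles holding pathogens, were all outside the range. Iigp1 was at 35.6, 56.8 and 24.6 CPM in TKO against 5.06 to 22.7 CPM in controls (median 10.3; 1.80 ± 0.49). Gbp3 was at 38.5, 49.8 and 35.2 CPM against 13.3 to 26.6 CPM (1.08 ± 0.31), Gbp2 at 28.7 to 39.5 CPM against 6.10 to 26.7 CPM (1.13 ± 0.44), and Gbp7 at 78.2 to 86.3 CPM against 38.3 to 65.8 CPM (0.61 ± 0.24). WT replicate 2, WT replicate 3 or the unnumbered δKO library was the nearest control in each. As a whole the list of 13 lay at 0.348 to 0.698 in TKO and -0.717 to 0.230 in controls, without overlap, and its median was 0.61 with 0 lower genes (0.93 without δKO replicate 1). Gbp genes are close paralogues in 1 cluster, so their counts may be shared and they are not independent of each other.

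Of 49 type I interferon-stimulated genes, 3 were higher (6.12%, beside 2.44% of all genes) and 0 lower, and the median was 0.30. Ifitm1, a transmembrane antiviral protein also typical of stem cells, had the widest separation, at 193, 340 and 189 CPM against 42.5 to 93.1 CPM (median 67.8; 1.81 ± 0.29). Its neighbour Ifitm3 was at 506, 504 and 375 CPM against 144 to 364 CPM (0.72 ± 0.28), and Lgals3bp, a secreted galectin ligand, at 212 to 269 CPM against 119 to 188 CPM (0.48 ± 0.20). Ifitm genes are also close paralogues. The list's median was 0.05 without TKO replicate 2. Its counts were 7 higher and 1 lower without δKO replicate 1 (14.3% higher, beside 4.94% of all genes) and 6 higher and 1 lower without TKO replicate 1 (12.2%, beside 4.01%). Of 30 genes of antigen presentation 2 were higher (6.67%, beside 2.44%), the invariant chain Cd74 at 111, 102 and 74.3 CPM against 32.4 to 60.1 CPM (0.98 ± 0.26) and the non-classical class I gene H2-T23 at 63.0 to 80.8 CPM against 28.8 to 61.8 CPM (0.75 ± 0.28). Among the serpins, Serpina3f was at 7.496, 6.25 and 14.1 CPM against 0.917 to 2.73 CPM (2.11 ± 0.61), and Serpina3g, a near-identical neighbour chosen after its values were seen, at 266, 262 and 177 CPM against 51.1 to 137 CPM (1.55 ± 0.30).

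The interferon-stimulated response element, to which ISGF3 and IRF factors bind, was searched on both strands as TTTC, 2 bases of any kind and TTTC. It was present in 4 of the 6 higher genes of the interferon and GTPase lists with a promoter entry, in 45.2% of the other 42 genes of those lists, in 3.83% of genes at the CPM minimum and in 3.99% of all promoters. The related gamma-activated sequence TTCNNNGAA was in 2 of the 6 (33.3%), in 33.3% of the other 42, in 8.33% of genes at the CPM minimum and in 9.55% of all promoters, and in Ifitm3 it overlaps an interferon-stimulated response element match. The 4 windows with the element, in capitals, are chr7:141010695-141010814 (Ifitm3, minus), chr3:142620593-142620712 (Gbp2, plus), chr3:142559974-142560093 (Gbp3, plus) and chr3:142530266-142530385 (Gbp7, plus). Ifitm3 has 2 matches read from the other strand and Gbp3 has 2 that overlap.
Ifitm3: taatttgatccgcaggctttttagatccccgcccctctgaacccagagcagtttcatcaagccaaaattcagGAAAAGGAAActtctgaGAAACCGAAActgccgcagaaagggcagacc
Gbp2: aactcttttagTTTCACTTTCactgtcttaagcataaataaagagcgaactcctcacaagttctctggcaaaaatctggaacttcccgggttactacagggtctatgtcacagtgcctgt
Gbp3: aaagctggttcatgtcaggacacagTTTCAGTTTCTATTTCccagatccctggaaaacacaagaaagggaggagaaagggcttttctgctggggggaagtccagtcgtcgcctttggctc
Gbp7: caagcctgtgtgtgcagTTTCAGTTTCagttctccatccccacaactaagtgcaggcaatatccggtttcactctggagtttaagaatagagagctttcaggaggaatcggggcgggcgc

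Of 68 genes used to recognise HSCs, 5 were higher (7.35%, beside 2.44% of all genes) and 1 was lower, with a list median of 0.24. Besides both Ifitm genes these were Selp, Fgd5 and Ctnnal1. Selp, the P-selectin gene, was at 78.0, 71.5 and 56.9 CPM against 23.7 to 41.2 CPM (median 29.98; 1.12 ± 0.25). Fgd5, a Cdc42 exchange factor used as an LT-HSC reporter locus, was at 83.6, 62.2 and 55.4 CPM against 17.2 to 51.2 CPM (median 22.5; 1.28 ± 0.35), and the unnumbered δKO library was the control close to TKO. Ctnnal1, the α-catulin gene, also an HSC reporter locus, was at 59.8, 33.5 and 34.4 CPM against 9.54 to 26.4 CPM (1.08 ± 0.36). Without δKO replicate 1, 14 of the 68 genes were higher (20.6%, beside 4.94% of all genes) and the median was 0.43, while it was 0.15 without WT replicate 1 and 0.42 with total-count scaling. The list's level was 0.156 to 0.284 in TKO and -0.498 to 0.421 in controls, with δKO replicate 1 above every TKO library. Eng, a TGF-beta co-receptor, was at 67.7 to 106 CPM against 35.5 to 66.5 CPM, and Zfp521, a transcriptional co-factor of early progenitors, at 55.8 to 77.1 CPM against 21.4 to 47.9 CPM. Cbx2, a polycomb reader of H3K27me3, was at 22.7 to 39.4 CPM against 4.35 to 17.6 CPM (1.23 ± 0.46).

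**Figure D5:**
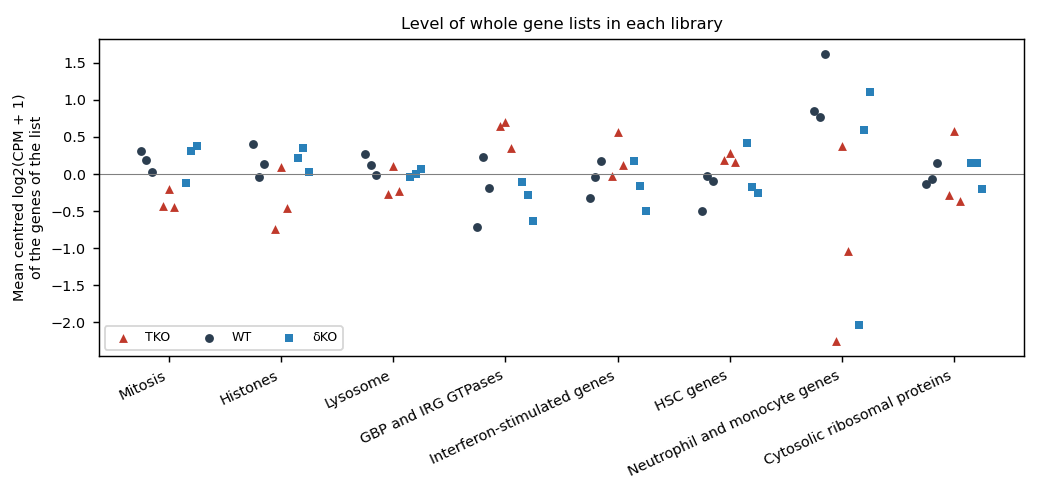
For 8 gene lists, the mean over the list's genes of log2(CPM + 1), centred per gene on the 9 libraries, is plotted for each library, with TKO as red triangles, WT as dark circles and δKO as blue squares. TKO lies below all controls for mitosis (-0.449 to -0.203 against -0.122 to 0.384) and above all for the GBP and IRG GTPases, whereas for the other lists shown the groups overlap.

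Of 188 solute carriers, a large list, 9 were higher (4.79%, beside 2.44% of all genes) and 2 were lower (1.06%, beside 2.29%). They included Slc2a1 and Slc17a8, described above, and Slc37a1, a sugar phosphate exchanger of the endoplasmic reticulum, at 48.4, 36.5 and 46.6 CPM against 18.8 to 30.96 CPM (0.85 ± 0.27). Col4a, Gimap and Glul genes were picked out after their values were seen. Col4a1 and Col4a2, the head-to-head genes of the basement membrane collagen IV, were at 35.8 to 64.0 CPM and 53.4 to 57.2 CPM in TKO, against 7.56 to 27.8 CPM and 13.2 to 26.8 CPM in controls, with log2 fold changes of 1.42 ± 0.41 and 1.38 ± 0.29. The stroma and endothelium markers beside them summed to 56.0 to 83.7 CPM in TKO and 56.4 to 89.6 CPM in controls. Gimap1, Gimap3 and Gimap4, GTPases of lymphocyte survival encoded in a cluster on chromosome 6, were higher out of 7 Gimap genes at the CPM minimum, and 0 were lower, beside 2.44% and 2.29% of all genes. Gimap1 was at 123, 142 and 92.2 CPM against 42.6 to 72.6 CPM (1.08 ± 0.24), Gimap3 at 11.5 to 22.4 CPM against 0.338 to 7.70 CPM and Gimap4 at 16.4 to 23.98 CPM against 2.52 to 15.2 CPM. The B-cell markers summed to 4.68 to 12.3 CPM in TKO and 7.45 to 12.4 CPM in controls, and the T and NK cell markers to 26.2 to 70.2 CPM and 55.2 to 236 CPM. Glul, glutamine synthetase, was nearly equal in the 3 TKO libraries, at 768, 769 and 760 CPM, and at 381 to 601 CPM in controls (median 515; 0.62 ± 0.19).

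The position of the retained genes relative to the targeted loci was also counted. Within 10 Mb of Pik3ca, 1 of 57 genes at the CPM minimum was outside the control range (1.75%), around Pik3cd 5 of 128 (3.91%), and around Pik3cb 10 of 138 (7.25%), beside 4.72% of all genes. Of the 138 genes near Pik3cb, 9 were lower and 1 was higher in TKO, beside 2.29% and 2.44% of all genes.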

How the data were processed

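The authors trimmed reads with Trim Galore 0.3.7, checked them with FastQC 0.11.4, and aligned them to mm10 and counted them per gene with STAR 2.5.1b; cDNA had been amplified with the Ovation RNA-Seq System V2, a kit that does not mark strand. They deposited raw counts per gene, used here, and a normalized signal (counts divided by 1 size factor per library, as in DESeq2), used only as an alternative. How the 2 technical runs per sample were joined is not given in the sources used here. Among the raw count columns, 1 for δKO bears a number that no label has, and it was used as a δKO library without a replicate number. The remaining δKO column of the normalized signal bears a labelled number. The single size factor was checked for all libraries but this one.

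Counts were scaled with TMM factors, filtered with filterByExpr (minimum count 10, minimum total 15; 18205 genes kept) and tested with edgeR 4.0.16 (R 4.3.3), 3 TKO against 6 controls without covariates, with 7 residual degrees of freedom and a common biological coefficient of variation of 0.835. Alternatives used DESeq2 1.42.0 and limma 3.58.1 (log2 of the deposited signal plus 1). The scripts were tested on simulated data. Of the gene IDs, 47224 matched GENCODE M21, of which 39106 did so with their version, and 19696 genes had no count in any library. Pseudogenes and models were retained, and the strand of overlapping genes cannot be told apart.

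Promoters came from RefSeq for GRCm38.p6, matched by symbol: an entry was found for 207 higher and 198 lower genes. Gene lists were described by counts and medians only. Named with values were the targeted genes and sort markers, the 15 protein-coding genes with the largest fold and the 10 with the widest gap in each direction, and up to 5 genes per list by smallest unadjusted p; genes with values outside this rule were chosen after their values were seen and are marked so, apart from those that mark the ends of a range. The retained genes and lists were chosen with earlier results of these data known. Depth limits precision to counting error plus the spread between libraries, and values under 1 CPM rest on few reads.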

Additional observations from a re-analysis of the deposited data

Results flagged for a closer look

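Among 108 genes whose values are given, 18 had a control library far from the other 5 (the gap to the nearest library exceeded Dixon's critical value). In δKO replicate 1, 9 of them were highest of the controls: Cdc45 at 70.3 CPM, Depdc5 at 241 CPM, Hist1h2bj at 23.6 CPM, Kit at 949 CPM, Lamtor4 at 48.8 CPM, P2ry2 at 66.0 CPM, Rab11a at 74.0 CPM, Serpina3g at 137 CPM and Slamf1 at 137 CPM. The unnumbered δKO library was the highest control for Cxcr4 at 194 CPM, Daglb at 51.4 CPM, Dnajb9 at 66.7 CPM, Evi2a at 65.8 CPM, Mcm5 at 199 CPM, Mvb12a at 20.5 CPM and Nagpa at 38.9 CPM, and the lowest for Lgals3bp at 119 CPM. WT replicate 1 was the highest control for Cnr2 at 15.3 CPM. These 2 δKO libraries thus held 17 of the 18, and they were also those with the fewest detected genes. In each lower gene of this kind the distant control lay away from TKO, so that the fold, but not the absence of overlap, rested in part on it. Dixon's rate of about 1 in 20 by chance assumes normal values and genes not chosen by them. The CPM here were untransformed and most of the genes were chosen by them, so that rate is no benchmark.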

How the results depend on the processing

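edgeR passed 0 genes in either direction with the factors of DESeq2, with upper-quartile factors, without the filter, with at least 10 counts in every library, with the number of detected genes as a covariate, with robust estimation and with limma on the deposited normalized values. With total counts it passed 1 higher gene (Enah), with 1 mean per genotype 1 higher gene (Zfp990, which overlapped; log2 fold change 3.24), and DESeq2 passed 91 higher and 129 lower genes. Leaving out single libraries gave 0 to 8 higher and 0 to 6 lower genes, above 0 only without δKO replicate 1. Without the 2 δKO libraries with the fewest detected genes, an alternative chosen after seeing the data, 6 higher and 2 lower genes passed.

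Non-overlapping genes numbered 481 higher and 89 lower with total counts, and 36 and 17 where a gap of 1.5-fold was required. They ranged from 325 to 632 higher and from 309 to 806 lower when a library was left out. With the scaling and the genes at the CPM minimum held fixed, these numbers can only grow, as there are fewer values to clear. Both were set anew each time, so genes could also be lost. Without TKO replicate 2, 267 of the 278 higher genes stayed. Without the 2 δKO libraries they were 771 and 697, which included all 278 higher genes and 243 of 261 lower ones. Outside the range under all 3 other scalings stayed 228 higher genes and 76 lower ones. Among the lower genes described above, Cdk6, Itga1, Cxcr4, Olr1, Gusb and Lamtor4 stayed so under only 1 of the 3.

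Same-numbered libraries of different genotypes correlated at -0.127 to 0.159 in their deviations, most of them above 0, and the other pairs at -0.179 to 0.226. The numbers were therefore not taken to pair them, though shared handling of same-numbered libraries was not tested. With the replicate block, 0 higher and 0 lower genes passed (382 and 492 at an unadjusted p under 0.05, 4 residual degrees of freedom, 8 libraries informing it). Over 3074 fits of 147 named genes the direction held in 3069. The 5 exceptions were small values of overlapping genes: Pik3ca without TKO replicate 1, WT replicate 3 or δKO replicate 2 (-0.048, -0.0093 and -0.033; with any library left out, at most 0.21), Slamf1 without TKO replicate 1 (-0.020, at most 1.25) and Kit without TKO replicate 3 (-0.047, at most 0.30). The cause was not tested.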
